A study of Mus musculus with 192 samples.

Results

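The miR-181 family was followed through the small RNA libraries of 3 mouse tissues as 7 of the 1960 mature miRNAs listed in each deposited table. Its members are 4 miRNAs from the 5p arm of the hairpin, mmu-miR-181a-5p, mmu-miR-181b-5p, mmu-miR-181c-5p and mmu-miR-181d-5p, and 3 from the 3p arm, mmu-miR-181a-1-3p, mmu-miR-181a-2-3p and mmu-miR-181c-3p. They were chosen by name, with 2 results of these data already known, the level of miR-181a-5p in cortex and the difference between LD50 and sham lungs among mice FP59 to FP88. Those 2 results are therefore given as descriptions with no test.

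A miRNA is cut from a hairpin in a longer transcript, and usually 1 of the hairpin's 2 arms is loaded into an Argonaute protein, where bases 2 to 8 of the miRNA, the seed, select the mRNAs to be repressed. The miR-181 genes lie in pairs, so that an a and a b hairpin, or a c and a d hairpin, are made from 1 stretch of DNA. In mice miR-181a-5p is known for setting the sensitivity of the T cell receptor in the thymus, and the family is abundant in brain, where it has been studied in neurons and astrocytes, and is also found in heart and vascular endothelium.

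The mature sequences are shown because the members differ by few bases, which bears on every value that follows. They are the RefSeq entries of mouse GRCm38.p6, written 5′ to 3′ with the seed, bases 2 to 8, in capitals.
mmu-miR-181a-5p: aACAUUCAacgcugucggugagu
mmu-miR-181b-5p: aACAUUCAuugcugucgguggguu
mmu-miR-181c-5p: aACAUUCAaccugucggugagu
mmu-miR-181d-5p: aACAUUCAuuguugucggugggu
mmu-miR-181a-1-3p: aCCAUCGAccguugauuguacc
mmu-miR-181a-2-3p: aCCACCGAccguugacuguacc
mmu-miR-181c-3p: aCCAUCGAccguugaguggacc
All 4 members of the 5p arm share the seed ACAUUCA. Of the 3p arms, miR-181a-1-3p and miR-181c-3p share the seed CCAUCGA, and miR-181a-2-3p has CCACCGA. With positions counted from 1 at the 5′ end and the first named miRNA's base first, miR-181a-1-3p and miR-181a-2-3p differ by U5C and U16C. The difference between miR-181b-5p and miR-181d-5p is C12U over their first 23 bases, and miR-181b-5p is 1 base longer. miR-181a-5p, of 23 bases, and miR-181c-5p, of 22 bases, are 1 edit apart. The paper names Bowtie, with mismatches allowed, where it describes mapping to the genome. Reads with a sequencing error or a trimmed end could be counted under a near neighbour. A low value of 1 member beside a high value of a near-identical one is therefore uncertain.

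The hairpins that give these arms were placed on NCBIM37, the assembly also called mm9. Mir181a-1 (chr1:139863032-139863118, plus strand) and Mir181b-1 (chr1:139863216-139863295, plus strand) are 97 bases apart and overlap no other annotated gene. Mir181a-2 (chr2:38708255-38708330, plus strand) and Mir181b-2 (chr2:38709350-38709438, plus strand) are 1019 bases apart within an intron of Nr6a1, which is transcribed from the opposite strand. Mir181d (chr8:86702615-86702686, minus strand) and Mir181c (chr8:86702762-86702867, minus strand) are 75 bases apart and also overlap no other gene. The mature miR-181a-5p is the same from Mir181a-1 and Mir181a-2, and so is miR-181b-5p from Mir181b-1 and Mir181b-2, so that only the 3p arms tell the loci on chromosomes 1 and 2 apart. Both a hairpins are shown with the 5p and 3p arms in capitals, since the ratio of their 3p arms differed most between the tissues.
Mir181a-1: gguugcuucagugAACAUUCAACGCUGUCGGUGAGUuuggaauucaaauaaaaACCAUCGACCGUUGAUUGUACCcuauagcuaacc
Mir181a-2: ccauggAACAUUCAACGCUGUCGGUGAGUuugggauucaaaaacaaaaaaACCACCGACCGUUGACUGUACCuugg
The capitals at the left of each hairpin are identical, and those at the right differ at the positions given above.

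The study asked how miRNAs change in cortex, heart and lungs after a single high dose of fentanyl, an opioid that depresses breathing. Adult male SKH-1 mice, a hairless and outbred stock, received fentanyl citrate under the skin at 62 mg/kg (HNLD, the highest non-lethal dose), 110 mg/kg (LD10) or 135 mg/kg (LD50), and sham mice received the vehicle alone. Tissues were taken from surviving mice at 0h, which is 40 min after the injection, 6h, 24h and 7d, which gives 16 groups of 4 mice in each tissue. No allele was altered, and the animals that died of the dose are not in the data.

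The tables hold 64 libraries of heart, 63 of lungs and 63 of cortex. A sham cortex at 24h and an LD50 lung sample at 7d were not analysed here. Depth, as recovered reads per library, was 215163 to 5355085 for heart, 196853 to 6540900 for lungs and 1775669 to 8381425 for cortex, and 1 read stood for a value of at most 3.96, 4.15 and 0.480 in the 3 tables. All 7 members passed the filter on low values, which asks for 10 or more in no fewer than 4 libraries, among the 320 miRNAs of heart, 371 of lungs and 482 of cortex that did. In cortex 3 libraries stood apart from the rest by their whole profile, in heart 2 and in lungs 10, and results that rest on them are given with and without them. In 4 of these the markers go against the label. In the heart library of HNLD mouse FP38 at 6h the cardiac miR-208a-3p had a value of 26.4 against 455 to 1448 in the other heart libraries, and in the lungs library of that mouse it had 2204 against 6.87 to 56.6 in the other lungs libraries. The cortex libraries of sham mice FP85 (6h) and FP96 (0h) had 245 and 115 for the neuronal miR-9-5p, against 46075 to 84797 in the others apart from HNLD mouse FP24 with 32770. The tables were scaled separately, so tissues are compared only by shares of a library's reads and by ratios within a library, and in bulk tissue fewer cells of a type and less RNA per cell cannot be told apart. Mouse numbers also go with dose. Mice FP16 to FP58 hold the HNLD mice, most LD10 mice and 2 LD50 mice, FP59 to FP88 the other LD50 mice and 10 sham mice, and FP91 to FP96 with FPB2 hold 6 sham mice and 1 LD10 mouse, so that HNLD and LD10 cannot be told apart from this numbering when they are set against sham. Within FP59 to FP88 the LD50 mice are FP59 to FP74 and the sham mice FP77 to FP88, so dose follows the numbers inside this range too. What the numbers stand for is not given in the sources used here.

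miR-181a-5p led the family in all 3 tissues, and its share of reads was lowest in heart and highest in cortex. It took a median of 2.38% of reads in heart (1.82% to 3.14% among libraries that do not stand apart), 6.45% in lungs (4.66% to 9.09%) and 11.9% in cortex (10.4% to 14.9%). These 3 ranges did not overlap. By its mean normalised value it was miRNA number 1 of the cortex table, number 11 in heart and number 4 in lungs, and the first of these is the result that chose the members. The other 5p arms added little to it. Together the 4 took a median of 2.84% of reads in heart, 7.09% in lungs and 13.8% in cortex.

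The c-arm miRNA, miR-181c-5p, was the second most abundant member everywhere, at 0.323% of reads in heart, 0.357% in lungs and 1.01% in cortex. miR-181b-5p followed it at 0.0972% in heart, 0.279% in lungs and 0.745% in cortex. The scarcest 5p arm was miR-181d-5p, with 0.0204% in heart, 0.0237% in lungs and 0.101% in cortex. All these medians had the order heart, lungs, cortex from low to high. Among the 3p arms, whose usual fate is degradation, miR-181a-1-3p kept that order, at 0.0171% in heart, 0.0518% in lungs and 0.149% in cortex. So did miR-181c-3p, with 0.0135% in heart, 0.0157% in lungs and 0.0580% in cortex. miR-181a-2-3p alone did not, with its highest share in heart, at 0.0582%, against 0.0190% in lungs and 0.0305% in cortex.

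**Figure D1:**
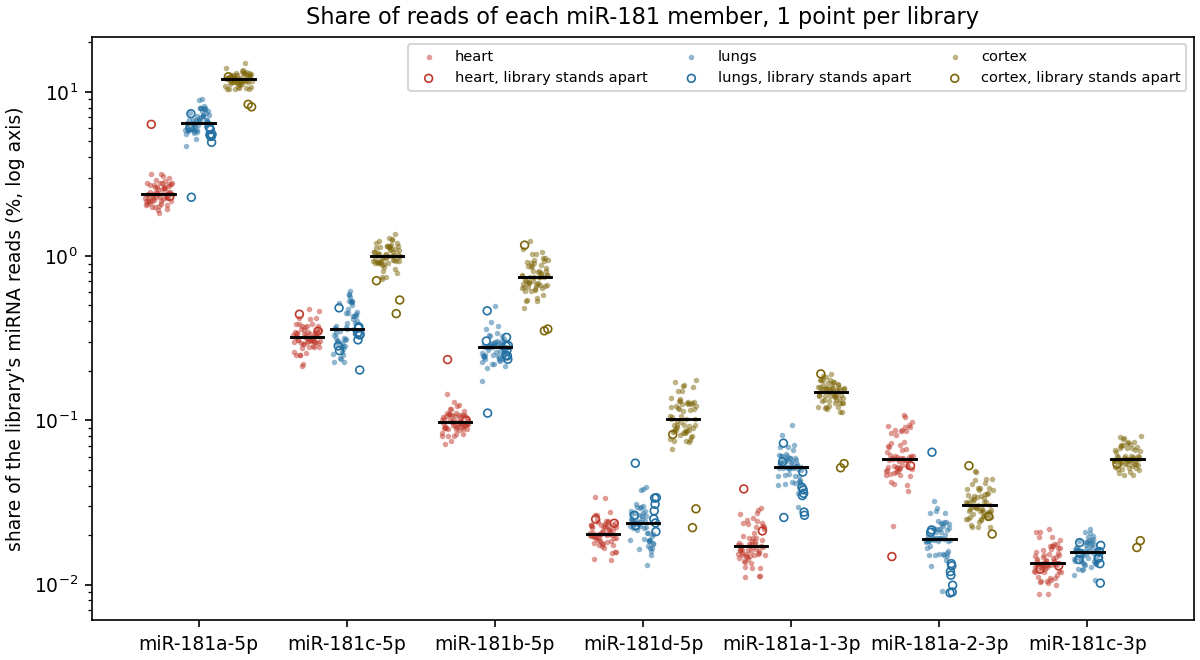
Share of a library's reads (%, log axis) taken by each of the 7 miR-181 members in heart, lungs and cortex. Each point is 1 library, open circles are libraries that stand apart, and the short lines are medians over all libraries; 6 members have their highest median in cortex, and miR-181a-2-3p has its in heart, at 0.0582% of reads.

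Within a tissue some neighbours in this order were separated in every library and others changed places. miR-181a-5p was above miR-181c-5p in all 64 heart libraries, all 63 lungs libraries and all 63 cortex libraries. miR-181c-5p was above miR-181b-5p in 64 of 64 libraries of heart, where the ranges did not overlap, but in 51 of 63 libraries of lungs and 52 of 63 of cortex. In lungs and cortex miR-181b-5p stood above miR-181a-1-3p in every library. In heart the next member below miR-181b-5p was miR-181a-2-3p, which stood under it in 62 of 64 libraries. Some lower places also changed, and miR-181d-5p was above miR-181a-1-3p in 48 of 64 heart libraries and above miR-181a-2-3p in 46 of 63 lungs libraries. The remaining arms of the same hairpins were scarce. Median values of miR-181b-1-3p were 5.12 in heart, 11.6 in lungs and 25.9 in cortex, and it passed the filter in lungs and cortex. miR-181b-2-3p had median values of 1.01, 0.594 and 0.974 in these tissues, and miR-181d-3p was at 0 in 46 of 64 heart libraries, 47 of 63 lungs libraries and 22 of 63 cortex libraries.

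The balance of the 3p arms of the 2 a hairpins was turned round between heart and the other tissues. How far this balance follows the output of the loci, rather than how much of each 3p arm is kept, was not tested. The median log2 ratio of miR-181a-2-3p (chromosome 2) to miR-181a-1-3p (chromosome 1) was 1.78 in heart, -1.46 in lungs and -2.18 in cortex. Among libraries that do not stand apart it ran from 1.02 to 2.49 in heart, from -2.50 to -0.82 in lungs and from -2.99 to -1.65 in cortex, so that heart overlapped neither of the others. The medians differed by 3.25 between heart and lungs and by 3.98 between heart and cortex on this log2 scale, and by 0.73 between lungs and cortex, whose ranges overlapped. Within a mouse, all 53 animals with heart and lungs libraries that do not stand apart had the higher ratio in heart, with a median difference of 3.23, and so did all 58 with heart and cortex, with 3.96. More reads came from the 3p arm of Mir181a-2 in 63 of 64 heart libraries, in 1 of 63 lungs libraries and in 0 of 63 cortex libraries. Both exceptions are libraries of HNLD mouse FP38 at 6h, with -1.37 in the library labelled heart and 1.32 in the library labelled lungs, the 2 libraries whose miR-208a-3p also goes against the label.

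**Figure D2:**
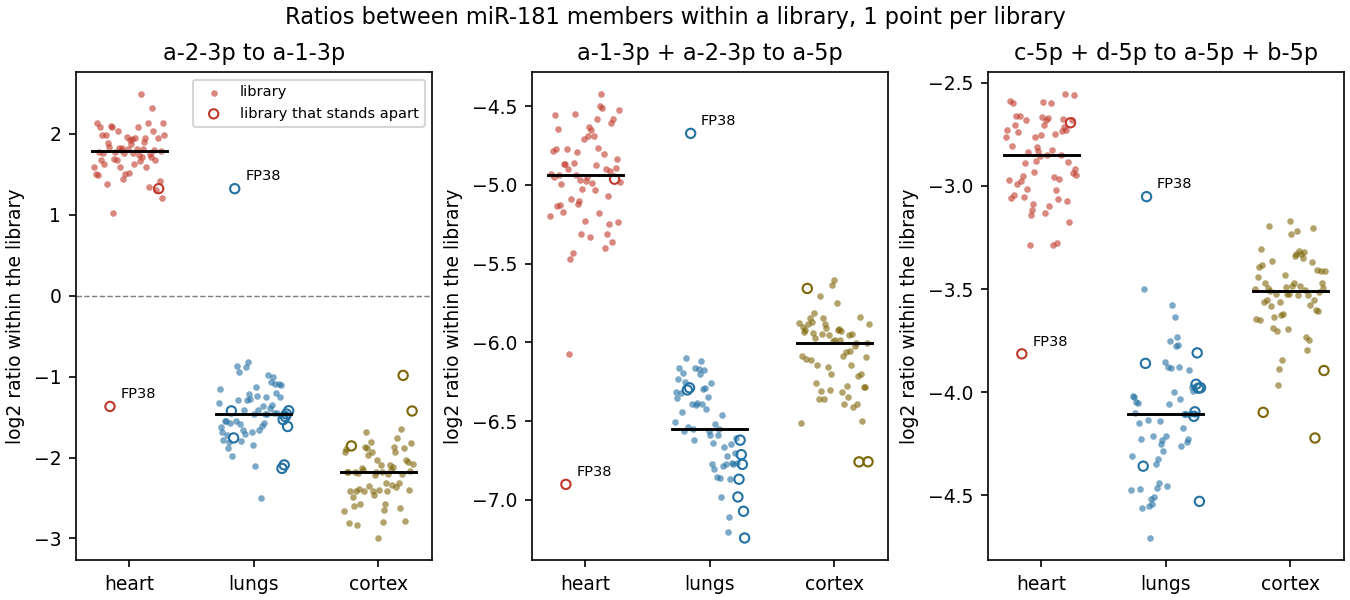
Log2 ratios within a library by tissue (heart, lungs, cortex), for miR-181a-2-3p over miR-181a-1-3p, both a 3p arms over miR-181a-5p, and the c and d over the a and b 5p arms. Each point is 1 library, open circles are libraries that stand apart, the lines are medians, and mouse FP38 is marked; in the first panel all heart libraries except that of FP38 lie above 0.

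The c/d pair made up a larger part of the family in heart than in lungs. The log2 ratio of miR-181c-5p plus miR-181d-5p to miR-181a-5p plus miR-181b-5p had a median of -2.85 in heart, -4.11 in lungs and -3.51 in cortex. Heart (-3.29 to -2.56) and lungs (-4.71 to -3.50) did not overlap among libraries that do not stand apart, and their medians then differed by 1.29. Within a mouse the ratio was higher in heart than in lungs in 53 of 53 animals without such libraries, and higher in heart than in cortex in 58 of 58. Cortex lay between them. Within the pairs the second miRNA was the rarer in each tissue. The log2 ratio of miR-181b-5p to miR-181a-5p had medians of -4.61 in heart, -4.55 in lungs and -4.05 in cortex, and that of miR-181d-5p to miR-181c-5p -3.99 in heart, -3.75 in lungs and -3.33 in cortex.

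The 3p arms of the a hairpins were a larger part of the arms' total in heart as well. The log2 ratio of both a 3p arms to miR-181a-5p had a median of -4.94 in heart, -6.55 in lungs and -6.01 in cortex. Its ranges among libraries that do not stand apart, -6.07 to -4.42 in heart and -7.20 to -6.10 in lungs, did not overlap, with medians 1.61 apart. The c hairpin differed less, and the log2 ratio of miR-181c-3p to miR-181c-5p had medians of -4.59 in heart, -4.52 in lungs and -4.13 in cortex.

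In the 4 libraries that go against their labels the members went with the marker miRNAs. miR-181a-5p took 6.34% of reads in the heart library of FP38, near the lungs median, and 2.28% in its lungs library, near the heart median. In the cortex libraries of FP85 and FP96 it took 8.39% and 8.10%, below the range of the cortex libraries that do not stand apart. Their normalised values of it, 141932 and 147455, were not low and lay within the range of those libraries. Their miR-181a-1-3p values of 870 and 992 were the lowest of the cortex table.

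In cortex no member passed the threshold for fentanyl against sham in limma, which was run on log2(value + 1) over all miRNAs past the filter with Benjamini-Hochberg adjustment and a threshold of 0.05. Dose was called in 0 of 7 members (background, the percent of all 482 miRNAs called: 1.04%), time in 0 of 7 (background 0%) and dose × time in 0 of 7 (background 0%). At an unadjusted p under 0.05 the test of dose picked 1 member (background 7.68%), that of time 2 (background 9.13%) and that of dose × time 0. On the recovered reads edgeR called 0 members in each, and DESeq2 called 1 for dose (background 14.1%) and 0 for the others. The smallest p values were those of miR-181c-5p for time (adjusted p = 0.430, limma) and of miR-181a-1-3p for dose (adjusted p = 0.365, limma). The mean of the 3 doses minus sham was called in 0 of 7 members at 0h (background 0%), 0 at 6h (background 0%), 0 at 24h (background 0%) and 0 at 7d (background 2.49%), with 0 by edgeR or DESeq2. Under an unadjusted p of 0.05 there was 1 member, at 6h, when 40.5% of all miRNAs were. Over all times limma called 0 of 7 (background 1.66%), with 1 under an unadjusted p of 0.05 (background 40.7%), 1 called by edgeR (background 22.8%) and 1 by DESeq2 (background 19.3%). The members' share was below that of all miRNAs in each of these 3 counts. The median difference of the members over all times was 0.005 on the log2 scale, beside 0.09 for all miRNAs tested.

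The member nearest to a call in cortex was miR-181a-1-3p. At 6h its values were 1766, 1439, 1485 and 1703 at HNLD, 1573, 1850, 1529 and 1569 at LD10, and 1310, 1350, 1457 and 1676 at LD50, against 1509, 1244, 870 and 1325 in sham mice. Fentanyl and sham values overlapped, and the sham value of 870 is that of FP85, a library whose markers go against its label. The mean difference at 6h was 0.35 on the log2 scale (95% interval 0.10 to 0.61, adjusted p = 0.105, limma), and with the libraries that stand apart left out it was 0.19 (adjusted p = 0.9995, limma). RLE scaling, which lowered the median of all miRNAs at 6h by 0.19, gave 0.16 for it. Over all times the difference was 0.22 (0.09 to 0.35, adjusted p = 0.0786, limma), and 0.14 (adjusted p = 0.601, limma) with those libraries left out.

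Among the 12 dose and time conditions of cortex, each set against the sham mice of its time, limma called 0 of 84 values of the members (background 0.242%), with 6 under an unadjusted p of 0.05 (background 12.6%). edgeR called 2 (background 6.85%) and so did DESeq2 (background 6.5%), shares below those of all miRNAs. Those 2 were miR-181a-5p and miR-181c-5p at LD10 and 0h, which have nearly the same sequence. For miR-181a-5p the values were 99859, 115541, 95222 and 102416 at LD10, against 132305, 133914, 129246 and 147455 in sham mice. For miR-181c-5p they were 9147, 8737, 7422 and 7136 at LD10, against 12170, 10462, 10916 and 9826 in sham mice. In both every LD10 value lay below every sham value. The sham values of 147455 and 9826 are those of FP96, a library whose markers go against its label. The log2 differences were -0.40 (-0.65 to -0.14, adjusted p = 0.141, limma; 0.0256 with edgeR and 0.0208 with DESeq2) for miR-181a-5p and -0.42 (-0.72 to -0.13, adjusted p = 0.141, limma; 0.0148 with edgeR and 0.00462 with DESeq2) for miR-181c-5p. These LD10 mice are of the range FP16 to FP58 and the sham mice are not, and leaving out the libraries that stand apart gave -0.36 (adjusted p = 0.413, limma) for miR-181a-5p and -0.47 (adjusted p = 0.291, limma) for miR-181c-5p. The median of all 482 miRNAs at LD10 and 0h was 0.22 above sham in the deposited scaling, and edgeR's scaling lowered it by 0.15.

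Within number ranges cortex gave no call either, though inside FP59 to FP88 LD50 and sham mice are still split by number. LD10 minus HNLD among FP16 to FP58 was called in 0 of 7 members (background 0%), and time among those mice in 0 of 7 (background 0.83%). LD50 minus sham among FP59 to FP88 was called in 0 of 7 (background 0%). At an unadjusted p under 0.05 these 3 comparisons picked 0 members, and edgeR and DESeq2 called 0. The last of them gave 0.07 (95% interval -0.18 to 0.31, adjusted p = 0.894, limma) for miR-181c-5p and 0.19 (-0.10 to 0.48) for miR-181a-1-3p, intervals that both include 0.

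In heart no difference of a member from sham was called at any time. Dose was called in 0 of 7 members (background 0% of 320 miRNAs), time in 0 of 7 (background 0%) and dose × time in 0 of 7 (background 0%) by limma, and 0 by edgeR or DESeq2. Under an unadjusted p of 0.05 there was 1 member for dose (background 6.88%), 2 for time (background 12.8%) and 0 for dose × time. The mean of the doses minus sham was called in 0 of 7 at 0h (background 0%), 0 at 6h (background 0%), 0 at 24h (background 0%), 0 at 7d (background 0%) and 0 over all times (background 0%), with 0 members under an unadjusted p of 0.05 and 0 by edgeR or DESeq2. The 7 differences lay between -0.13 and 0.19 on the log2 scale at 0h, -0.38 and 0.01 at 6h, -0.30 and 0.15 at 24h, -0.19 and 0.16 at 7d, and -0.10 and 0.06 over all times. The lowest, miR-181a-2-3p at 6h (95% interval -0.94 to 0.18, adjusted p = 0.798, limma), takes in the library of FP38, and without it the difference was -0.17. Among the 12 conditions 0 of 84 values were called (background 0.599%), none had an unadjusted p under 0.05, and edgeR and DESeq2 called 0.

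The heart member with the smallest p was miR-181a-1-3p, for time (adjusted p = 0.247, limma). At 24h its values were 154, 161, 170 and 133 at HNLD, 161, 159, 142 and 155 at LD10, and 180, 180, 155 and 190 at LD50, against 218, 175, 221 and 185 in sham mice. By the labels all HNLD and LD10 values lay below all sham values, and LD50 values overlapped them. The sham value of 218 is that of FP91, whose column is named LD10 in the table and which as LD10 would lie among the sham values, and 175 is that of FP92, a library that stands apart. The mean difference was -0.30 (95% interval -0.63 to 0.02, adjusted p = 0.731, limma), with -0.26 without FP91 and -0.36 without FP92. Within FP16 to FP58, LD10 minus HNLD was called in 0 of 7 members (background 0%), with 1, miR-181a-1-3p, under an unadjusted p of 0.05 (background 2.81%) at -0.25 (-0.47 to -0.03, adjusted p = 0.876, limma) and 0 by edgeR or DESeq2. Time within FP16 to FP58 (background 0%) and LD50 minus sham within FP59 to FP88 (background 0%) were called in 0 of 7 each, with 0 under an unadjusted p of 0.05 and 0 by edgeR or DESeq2. In the last comparison miR-181c-5p differed by -0.11 (-0.37 to 0.15, adjusted p = 0.821, limma) and miR-181a-2-3p by 0.23 (-0.15 to 0.61).

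**Figure D3:**
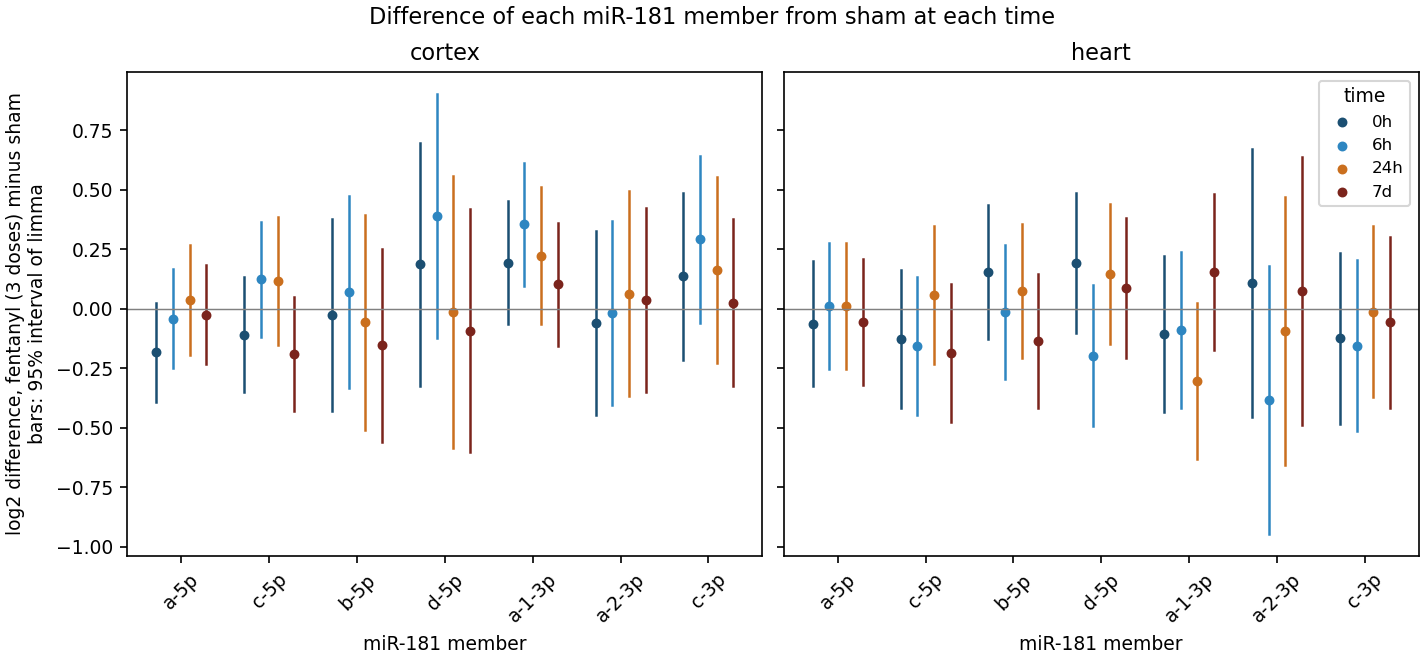
Log2 difference, mean of the 3 fentanyl doses minus sham, of the 7 miR-181 members at 0h, 6h, 24h and 7d in cortex and heart, from limma on log2(value + 1) with all libraries. Bars are 95% intervals; none of these differences was called at an adjusted p of 0.05, and that of miR-181a-1-3p in cortex at 6h, at 0.35, is the one whose unadjusted p was under 0.05.

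In lungs the ratio of miR-181d-5p to miR-181c-5p, made from neighbouring hairpins, went with the mouse number range. Its median log2 value was -3.60 in the 33 libraries of FP16 to FP58, -4.54 in the 23 of FP59 to FP88 and -3.46 in the 7 of FP91 to FP96 and FPB2. Of the 23 libraries of FP59 to FP88, 22 lay below all 33 of the lower range and 23 lay below all 7 of the higher one. The range holds LD50 and sham mice, and both were low, with -4.64 in its 13 LD50 libraries and -4.53 in its 10 sham libraries. The only 2 LD50 mice outside it, FP29 at 6h and FP43 at 7d, had -3.72 and -3.50, within reach of the medians of the HNLD mice (-3.47) and LD10 mice (-3.66) they are numbered with. In cortex and heart the ranges differed less. Their medians were -3.44 in FP59 to FP88 and -3.22 in FP16 to FP58 of cortex, and -3.96 and -3.90 in these ranges of heart.

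**Figure D4:**
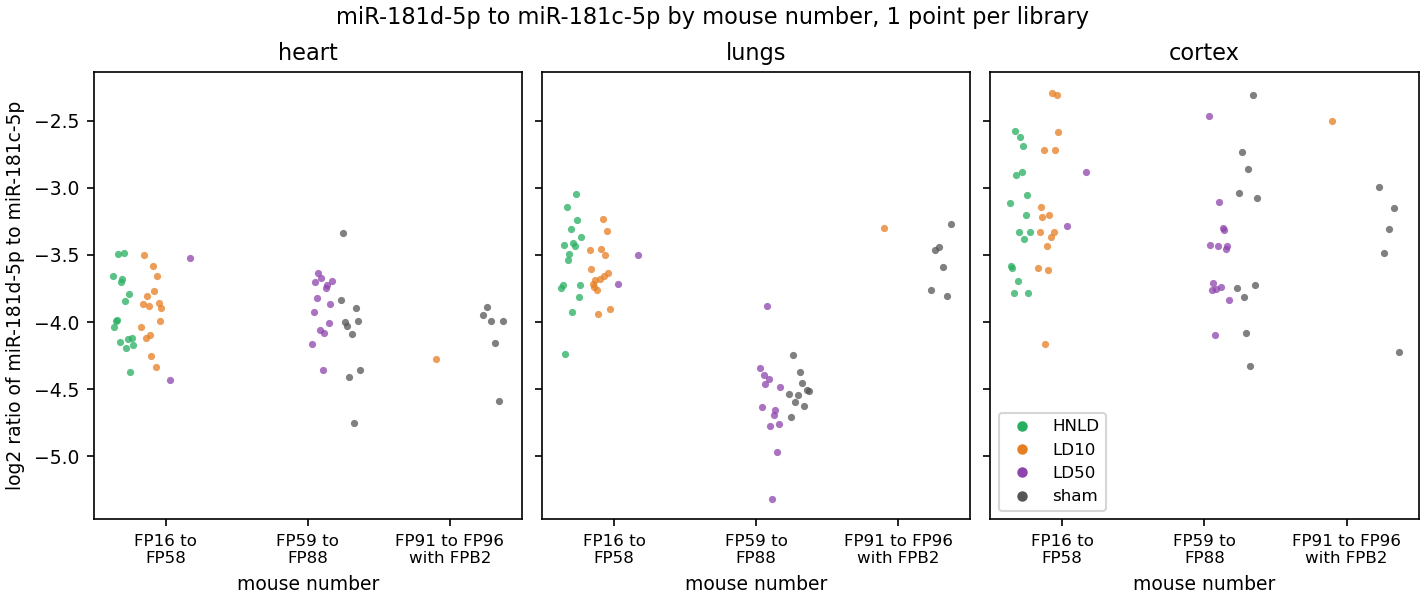
Log2 ratio of miR-181d-5p to miR-181c-5p in each library of heart, lungs and cortex, by mouse number range, with dose shown by colour. In lungs 22 of 23 libraries of FP59 to FP88 lie below all libraries of FP16 to FP58, LD50 and sham alike.

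Other ratios of lungs followed the numbers less sharply. The log2 ratio of miR-181c-3p to miR-181c-5p had medians of -4.33 in FP16 to FP58, -4.86 in FP59 to FP88 and -4.52 in the last range, and 14 of the 23 libraries of FP59 to FP88 lay below all 33 of FP16 to FP58. For both a 3p arms over miR-181a-5p the medians were -6.32, -6.77 and -6.87 in the same ranges, and 18 of the 23 lay below all 33. A comparison of LD50 with sham is therefore read only among mice FP59 to FP88, at 0h, 6h and 7d, where both are present. The LD50 mice there have the lower numbers and the sham mice the higher, so dose and numbering cannot be told apart in it.

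miR-181c-5p was higher in LD50 than in sham lungs among FP59 to FP88, and this comparison was one of the results that chose the members, so it is described and was not tested. At 0h its values were 5823, 5951, 5743 and 4369 in LD50 mice, against 4165 and 4290 in sham mice. At 6h they were 6055, 5448 and 5604 in LD50 mice, against 4912, 4464, 4681 and 4375 in sham mice. At 7d they were 4856 and 5613 in LD50 mice, against 3562, 4120, 3828 and 3743 in sham mice. Every LD50 library lay above every sham library of its time, which held for 3 of 371 miRNAs (background 0.809%), a count that nothing is read from here. The mean log2 difference was 0.37 (SE 0.068, 9 LD50 and 10 sham libraries), with 0.36 at 0h (SE 0.12), 0.31 at 6h (SE 0.11) and 0.46 at 7d (SE 0.12). LD50 mouse FP29 at 6h, of another number range, had 2616, and FP43 at 7d had 2451, both below all LD50 and sham values of FP59 to FP88. At 24h the LD50 lungs of FP59 to FP88 had 5789, 4818, 4876 and 5483, and no sham mouse of that range was taken at that time. In cortex and heart of FP59 to FP88, LD50 and sham values of miR-181c-5p overlapped at 0h, 6h and 7d. How many of all miRNAs of those tissues did not overlap was not counted, so nothing is read from this.

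**Figure D5:**
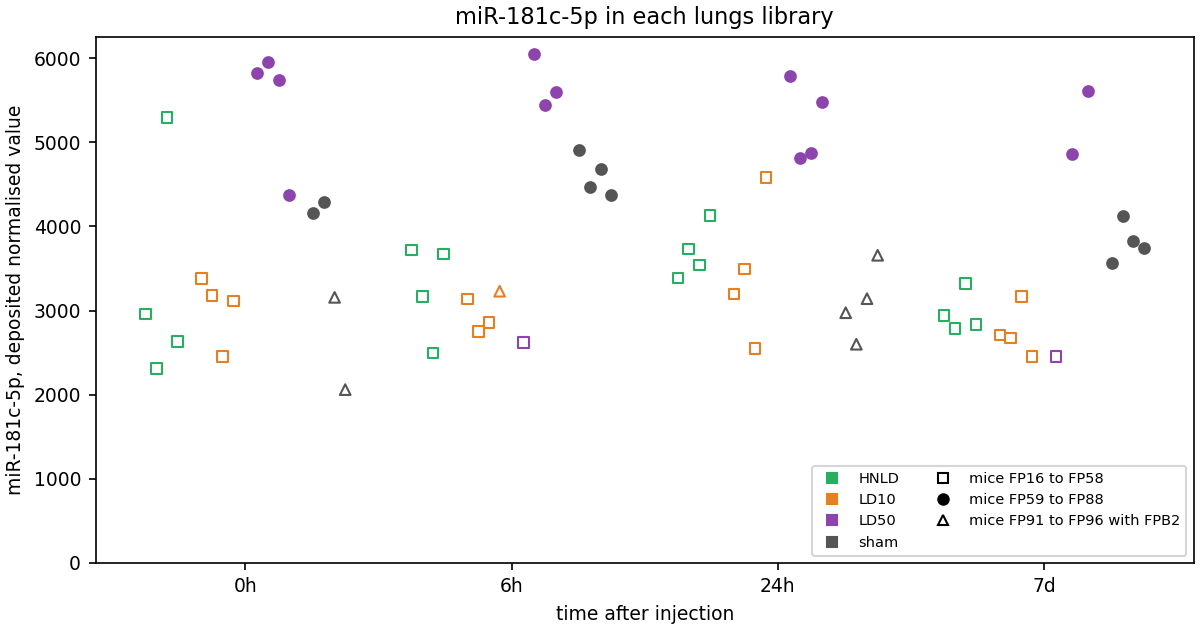
Value of miR-181c-5p (normalised signal) in each lungs library by time and dose. The y axis starts at 0, colour gives the dose, filled circles are mice FP59 to FP88, open squares FP16 to FP58 and open triangles FP91 to FP96 with FPB2; at 0h, 6h and 7d the filled LD50 circles lie above the filled sham circles, and both open LD50 squares lie below them.

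The other members of lungs moved less in this comparison. After miR-181c-5p the differences were 0.30 for miR-181a-1-3p (SE 0.114), 0.25 for miR-181c-3p (SE 0.102), 0.21 for miR-181a-2-3p (SE 0.145), 0.20 for miR-181a-5p (SE 0.066), 0.17 for miR-181d-5p (SE 0.077) and 0.05 for miR-181b-5p (SE 0.071). The median of the 7 was 0.21, beside 0.05 over all 371 miRNAs, of which the middle 90% ran from -0.30 to 0.33. All 7 were above 0 at 0h and at 7d, and 5 were at 6h, when miR-181d-5p stood at -0.13. The log2 ratio of miR-181d-5p to miR-181c-5p at 6h was -5.32, -4.97 and -4.76 in LD50 mice, against -4.54, -4.71, -4.45 and -4.63 in sham mice, with every LD50 library below every sham library, while at 0h and 7d LD50 and sham ratios overlapped. For miR-181a-5p LD50 and sham overlapped at 6h and 7d but not at 0h, where the values were 72776, 79597, 78901 and 84398 in LD50 mice, against 65907 and 68964 in sham mice. miR-181d-5p was higher at LD50 without overlap at 0h (196 to 230 against 184 to 188) and 7d (226 to 239 against 164 to 187). So was miR-181c-3p at 7d (157 to 191 against 106 to 146). These times have 2 sham libraries (0h) or 2 LD50 libraries (7d), and the share of all miRNAs at single times was not counted.

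Marker miRNAs of other cells were summed over these same libraries. The 6 brain markers summed to 177 to 389 in LD50 lungs (median 264), against 261 to 1373 in sham lungs (median 476), and the 2 smooth muscle markers to 132761 to 226624 (median 193603), against 112942 to 214736 (median 158944). For the 5 leukocyte markers the sums were 5120 to 14096 in LD50 lungs, against 7203 to 12542 in sham lungs. For the 5 epithelial markers they were 7985 to 9726 in LD50 lungs, against 8025 to 9830 in sham lungs, and for the 2 endothelial markers 50153 to 60116, against 48129 to 66138. The 6 muscle markers gave 4905 to 8055 in LD50 lungs, against 2256 to 9107 in sham lungs, and the 3 red blood cell markers 32113 to 71596, against 33467 to 146273. LD50 and sham ranges overlapped for each of the 7 lists, and their part in the difference of miR-181c-5p was not tested.

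For HNLD and LD10 lungs, which have no sham mice of their own number range, limma called 7 of 56 values of the members against sham over the 8 conditions, all of them higher (background 10.8%). Under an unadjusted p of 0.05 there were 18 (background 23.8%), edgeR called 8 (background 12.7%) and DESeq2 called 8 (background 13.9%). The shares of calls, near those of all miRNAs, are no result about the members. At 0h limma called 0 of 7 members at HNLD (background 8.63%), with 1 under an unadjusted p of 0.05 (background 22.9%) and 0 by edgeR or DESeq2. At LD10 it called 1 (background 9.16%), which was also the 1 under an unadjusted p of 0.05 (background 22.6%), and edgeR called 1 (background 12.4%) and DESeq2 1 (background 13.7%). At 6h it called 0 at HNLD (background 0.27%), with 3 under an unadjusted p of 0.05 (background 24.5%), 3 by edgeR (background 11.3%) and 3 by DESeq2 (background 12.9%), and 0 at LD10 (background 0%), with 3 under an unadjusted p of 0.05 (background 16.2%) and 0 by either tool. At 24h it called 3 at HNLD (background 36.7%), with 4 under an unadjusted p of 0.05 (background 46.6%), 3 by edgeR (background 34.8%) and 3 by DESeq2 (background 34.8%). At LD10 it called 2 (background 31.5%), the same number as under an unadjusted p of 0.05 (background 41.8%), and edgeR and DESeq2 called 0. At 7d it called 1 at HNLD (background 0.27%), with 2 under an unadjusted p of 0.05 (background 8.09%), 1 by edgeR (background 0.27%) and 1 by DESeq2 (background 1.35%). At LD10 it called 0 (background 0%), with 2 under an unadjusted p of 0.05 (background 7.55%) and 0 by edgeR or DESeq2.

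Both a 3p arms were higher than sham at 24h. miR-181a-1-3p had 550, 597, 515 and 997 at HNLD and 494, 511, 529 and 565 at LD10, against 343, 293, 417 and 372 in sham mice, with no overlap. The log2 differences were 0.86 at HNLD (95% interval 0.44 to 1.27, adjusted p = 0.00105, limma) and 0.57 at LD10 (0.15 to 0.99, adjusted p = 0.0310, limma). miR-181a-2-3p had 188, 247, 187 and 232 at HNLD and 161, 174, 216 and 157 at LD10, against 78, 101, 98 and 132 in sham mice, again with no overlap. It differed by 1.07 at HNLD (0.44 to 1.70, adjusted p = 0.00571, limma) and by 0.80 at LD10 (0.17 to 1.43, adjusted p = 0.0452, limma). Their 5p partner, miR-181a-5p, had 62041, 72337, 67654 and 94128 at HNLD, against 53230, 46076, 50676 and 52893 in sham mice, a difference of 0.53 (0.19 to 0.87, adjusted p = 0.0112, limma).

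All 4 sham lungs at 24h are libraries of FP91 to FP94, which stand apart and are of low depth, and the difference has no value without them. In them the 5 epithelial markers summed to 14865 to 19686, against 7828 to 8424 at HNLD and 8614 to 8951 at LD10, and the 3 red blood cell markers to 21715 to 28320, against 48141 to 62366 at HNLD and 37841 to 52123 at LD10. Neither list overlapped between these doses and sham, and their part in the result was not tested. Another scaling moved the median of all miRNAs at 24h down by 0.15 to 0.18 at HNLD and by 0.13 to 0.18 at LD10. Under those scalings all 7 members stayed above 0 at HNLD and the 2 calls at LD10 were lost. With a term for the number range, the difference of miR-181a-1-3p was -0.04 at HNLD (adjusted p = 0.966, limma) and -0.33 at LD10 (adjusted p = 0.866, limma), and that of miR-181a-2-3p 0.15 (adjusted p = 0.962, limma) and -0.11 (adjusted p = 0.994, limma).

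The call at 0h was miR-181a-1-3p, with 577, 608, 621 and 585 at LD10, against 476, 432, 342 and 281 in sham mice. Every LD10 value lay above every sham value, and the log2 difference was 0.67 (0.25 to 1.09, adjusted p = 0.0326, limma). The 2 lower sham values are those of FP95 and FP96, which stand apart, and without such libraries the difference was 0.40 (adjusted p = 0.306, limma). At 7d miR-181d-5p had 219, 282, 401 and 300 at HNLD and 245, 220, 247 and 224 at LD10, against 187, 170, 164 and 181 in sham mice. HNLD and LD10 values lay above all sham values. The difference was 0.74 at HNLD (0.38 to 1.10, adjusted p = 0.0459, limma) and 0.41 at LD10 (adjusted p = 0.519, limma). The sham mice at 7d are of FP59 to FP88, the range in which miR-181d-5p was low beside miR-181c-5p at LD50 and sham alike, and with a term for the number range the HNLD difference was 0.74 (adjusted p = 0.133, limma).

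Several members differed at 6h without passing the threshold. miR-181a-5p had 56579, 27204, 57805 and 77261 at HNLD, against 89269, 76677, 70024 and 75191 in sham mice, and the value of 27204 is that of FP38. The log2 difference was -0.60 (-0.94 to -0.25, adjusted p = 0.0659, limma), and -0.29 (adjusted p = 0.527, limma) without that library. miR-181c-5p had 3720, 3168, 2496 and 3674 at HNLD and 3136, 2750, 2860 and 3229 at LD10, against 4912, 4464, 4681 and 4375 in sham mice. All HNLD and LD10 values lay below all sham values, as at 7d, with 2455 to 3319 against 3562 to 4120. The sham mice of both times are of FP59 to FP88, and at 6h FP33, FP38 and FPB2 stand apart. Its log2 difference at 6h was -0.51 at HNLD (adjusted p = 0.158, limma) and -0.62 at LD10 (adjusted p = 0.150, limma). miR-181d-5p had the other sign, with 421, 272, 164 and 339 at HNLD, against 212, 171, 214 and 177 in sham mice, values that overlapped. Its difference was 0.55 (0.20 to 0.91, adjusted p = 0.0765, limma), and 0.57 (adjusted p = 0.238, limma) without FP38. It was 0.36 (adjusted p = 0.223, limma) without FP33, the library with 421, which stands apart and is of low depth, and 0.81 (adjusted p = 0.00250, limma), past the threshold, without FP45, the library with 164.

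Among lungs of FP16 to FP58, where HNLD and LD10 mice are numbered together, LD10 minus HNLD was called in 0 of 7 members (background 0%), and time in 0 of 7 (background 0%), with 0 under an unadjusted p of 0.05 and 0 by edgeR or DESeq2. All 7 differences of LD10 minus HNLD were at or below 0, from -0.24 to -0.001 on the log2 scale, with adjusted p of at least 0.659 in limma. For miR-181d-5p it was -0.19 (95% interval -0.41 to 0.03). Time over all lungs was called in 0 of 7 members (background 1.35%), with 0 by edgeR and 1 by DESeq2 (background 5.93%). Under an unadjusted p of 0.05 there were 2 (background 17.8%), miR-181d-5p (adjusted p = 0.162, limma) and miR-181a-2-3p (adjusted p = 0.180, limma).

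Members of 1 cluster did not always vary together. Across the 60 cortex libraries that do not stand apart, Pearson r of log2(value + 1) was 0.80 between miR-181b-5p and miR-181d-5p, which come from different chromosomes, and -0.23 between miR-181c-5p and miR-181d-5p, which come from 1 cluster. In 53 lungs libraries r was 0.73 between miR-181a-5p and miR-181c-5p and -0.13 between miR-181c-5p and miR-181d-5p. In 62 heart libraries it was 0.33 between miR-181c-5p and miR-181d-5p, the opposite sign, and 0.80 between miR-181a-1-3p and miR-181a-2-3p. The pairs named here with the higher values in cortex and lungs are those of near-identical sequence, but r did not follow sequence throughout. The near-identical miR-181b-5p and miR-181d-5p had 0.20 in lungs, and miR-181b-5p and miR-181a-2-3p, unlike in sequence, had 0.69 in cortex. These libraries share depth, scaling and number ranges, and the values are descriptions.

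By the same measure, the miRNAs most like miR-181a-5p were miR-127-5p (r = 0.64), miR-409-3p (0.62) and miR-1298-3p (0.62) in cortex, miR-152-5p (0.64), miR-486a-5p (0.62) and miR-410-3p (0.59) in heart, and miR-148b-5p (0.65), miR-423-3p (0.65) and miR-1839-5p (0.63) in lungs. Those most like miR-181c-5p were miR-136-3p (0.70), miR-186-5p (0.70) and miR-30e-5p (0.64) in cortex, miR-136-3p (0.50), miR-335-5p (0.45) and miR-208b-3p (0.44) in heart, and miR-136-5p (0.79), miR-148b-5p (0.75) and miR-322-3p (0.74) in lungs. An arm of the miR-136 hairpin, of the imprinted cluster on mouse chromosome 12, led the second list in each tissue.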

How the data were processed

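The authors sequenced small RNA, mapped reads to miRBase entries for mouse (mm9), and applied TMM scaling in edgeR, as the paper and the submitters' notes state. The paper names Bowtie 1.0.0, with 1 pair of mismatches allowed, where it describes a check by mapping to the mm9 genome. The deposited values are a normalised signal, reads over a library factor, in 1 table per tissue. All low values checked (100%) were whole reads within 0.1 read. Of 192 labelled samples 190 had a column, and 0 columns were left out. Groups came from the labels, which name the 62 mg/kg dose LOEL, and replicates were numbered in accession order. For FP91, sham at 24h by its label, the heart column is named LD10. Members, lists and tests were chosen with earlier results of these data known.

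Values were tested on log2(value + 1), with a pseudocount of 1, by limma (3.58.1, R 4.3.3, mean trend) with 16 group means per tissue, after the filter of at least 10 in at least 4 libraries. edgeR (4.0.16) and DESeq2 (1.42.0) were run on the recovered reads. Planned lungs comparisons with LD50 were left untested, because the choice of members used them. Libraries were joined by average linkage on 1 minus Pearson r, and those outside the largest branch at a height of 0.05 stood apart. Low depth means fewer reads than 0.25 of the tissue median. All 7 members, the other arms and the 3 most alike miRNAs were named by rule. The p-values measure the spread between mice. The fits were tested on simulated data with the same dispersion for all miRNAs. Those data held no effect of the number range and no library of another profile, so they cannot show how the fits handle either. Other alternatives were RLE scaling, pseudocounts of 0.25 and 4, no filter, library weights, a term for the number range and leaving out libraries. Python 3.11.15, numpy 2.4.6, pandas 2.3.3, scipy 1.17.1 and matplotlib 3.10.9 were used.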

Additional observations from a re-analysis of the deposited data

Results flagged for a closer look

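Each member was checked in each group of 4 libraries. In 31 of these 322 sets of 4 values (9.63%), 8 in cortex, 10 in heart and 13 in lungs, the highest or lowest value lay farther from the other 3 than Dixon's 95% limit allows. Chance gives about 1 in 20, but the 7 members share the same libraries, so the sets are not independent.

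In cortex miR-181a-5p was high at LD50 in FP74 at 0h (168923, others 129115 to 132730), in FP73 at 6h (142192, others 110919 to 111466) and in FP64 at 24h (150925, others 105461 to 111495). miR-181c-5p was low in FP24 at HNLD and 7d (6023, others 9448 to 10270), a library that stands apart. miR-181d-5p was low in FP74 at LD50 and 0h (838, others 1250 to 1295). miR-181a-1-3p was high in FP42 at LD10 and 6h (1850, others 1529 to 1573) and low in FP51 at LD10 and 24h (1328, others 1460 to 1489). miR-181a-2-3p was low in FP32 at HNLD and 0h (197, others 316 to 334).

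In heart miR-181b-5p was low in FP17 at LD10 and 7d (764, others 937 to 952) and high in sham mouse FP84 at 7d (1544, others 870 to 895). miR-181c-5p was high in the sham mice FP95 at 0h (4571, others 3325 to 3439) and FP84 at 7d (4604, others 3029 to 3223). miR-181d-5p was high in FP41 at LD10 and 7d (213, others 186 to 189), where miR-181a-2-3p was low (195, others 440 to 489). miR-181a-1-3p was low in FP40 at HNLD and 7d (164, others 178 to 180) and in sham mouse FP83 at 7d (122, others 152 to 157), and high in FP21 at LD10 and 0h (261, others 169 to 177) and in FP73 at LD50 and 6h (237, others 148 to 154).

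In lungs miR-181a-5p was high at LD10 in FP55 at 0h (62545, others 56334 to 56802) and FP42 at 6h (66484, others 53315 to 54412), and low in sham mouse FP81 at 7d (61325, others 70717 to 72528). miR-181b-5p was high in FP58 at HNLD and 24h (5262, others 2698 to 2943) and low in FP17 at LD10 and 7d (2049, others 2783 to 2904). miR-181c-5p was low at LD50 in FP74 at 0h (4369, others 5743 to 5951) and in FP29 at 6h (2616, others 5448 to 6055), a mouse of another number range than those others. miR-181d-5p was low in FP48 at LD10 and 0h (217, others 247 to 253). miR-181a-1-3p was low in FP38 at HNLD and 6h (305, others 558 to 611), the library with cardiac markers, and high in FP27 at LD10 and 7d (622, others 479 to 495). miR-181a-2-3p was low in FP64 at LD50 and 24h (77.3, others 188 to 225). miR-181c-3p was high in sham mouse FP77 at 6h (202, others 145 to 151) and low in sham mouse FP81 at 7d (106, others 142 to 146).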

How the results depend on the processing

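Counts are of member values called by limma, 84 values for the 12 conditions of cortex and heart and 56 for the 8 of lungs. In cortex edgeR called 2 of the 12 conditions' values in place of 0, and DESeq2 called 2 there and 1 for dose. With library weights 3 members were called for time in cortex (175 of 482 miRNAs), 3 for dose × time (111), 2 for time in heart (31 of 320), and in lungs 2 for time (157 of 371) and 17 for the 8 conditions in place of 7 (674 of 2968 values). At an unadjusted p the counts were 1 for dose, 2 for time, 1 over the 4 times and 6 over the 12 conditions in cortex, 1 for dose, 2 for time and 1 for LD10 minus HNLD in heart, and 2 for time and 18 over the 8 conditions in lungs. DESeq2 called 1 for time in lungs. For the 8 conditions of lungs the count was 3 with no filter and 1 with a term for the number range. It was 1 without low-depth libraries, 1 without libraries that stand apart and 1 without mice FP91 to FP96 and FPB2. Those last counts hold no 24h comparison, and 3 HNLD and 2 LD10 values of the 7 were called at 24h. Leaving out FP91 to FP96 and FPB2 was chosen after seeing the data, as was leaving out FP38, which gave 8. Leaving out each library in turn gave 0 to 2 over the 4 times of cortex and 0 to 3 over its 12 conditions, the highest without sham 6h replicate 4 (FP86), and 4 (without LD10 24h replicate 3) to 9 (without HNLD 6h replicate 3) over the 8 conditions of lungs. Over all miRNAs the calls for those 8 conditions then ran from 254 to 379.

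With a term for the number range 3 called differences of lungs turned round, miR-181a-1-3p at 24h to -0.0433 at HNLD and -0.33 at LD10, and miR-181a-2-3p to -0.11 at LD10. That term rests on the few groups that span ranges, none of them at 24h. The call of miR-181d-5p at HNLD and 7d was lost without 39 of the 63 libraries taken singly, with RLE scaling (adjusted p = 0.0565) and with no filter (0.156), and held without libraries that stand apart (0.0159, all limma). The lungs difference of miR-181c-5p at LD50 among FP59 to FP88 ran from 0.34 to 0.41 when single libraries were left out. The medians of the balances moved by less than the spread between libraries under every alternative run. Scaling cancels in these ratios and a single library hardly moves a median, so only leaving out the libraries that stand apart could have moved them far. The 24h comparisons of lungs could not be fitted without low-depth libraries, libraries that stand apart or FP91 to FP96.

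Over all miRNAs of cortex, limma called 5 for dose where edgeR called 66 and DESeq2 68, 14 over the 12 conditions against 396 and 376, and 12 over the 4 times against 208 and 186. Leaving out single libraries gave limma 11 to 226 over the 12 conditions, the highest without sham 0h replicate 4 (FP96), and 0 (without sham 7d replicate 4) to 231 (without sham 0h replicate 1) over the 4 times, so these backgrounds rest on single sham libraries. In heart the 23 calls over the 12 conditions were 0 without FP38. In lungs the 321 calls over the 8 conditions were 5 with a term for the number range. There were 23 without libraries that stand apart and 9 without low-depth libraries, but these 2 counts hold no 24h comparison. At 24h lay 136 (HNLD) and 117 (LD10) of the 321 calls, so the counts are not of the same conditions. No paired analysis was possible because each mouse gives a tissue 1 library under 1 dose and time, and the groups share no replicate numbers. Tissues were compared within a mouse by ratio only, chosen after seeing the data. Depth limits the rarer 3p arms most, since 1 read stood for a value of up to 4.15 in lungs.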
